A study of Homo sapiens with 12 samples.

Results

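The 8 genes described here encode complement components and regulators, and they were represented by 14 probe sets. They comprise the components C3, C1R and C1S, the soluble regulators CFI and SERPING1, and the membrane regulators CD46, CD55 and CD59. Every probe set whose only gene symbol in the platform annotation was one of these symbols was taken, out of 19065 probe sets with 1 symbol, which stand for 11963 genes, and 22283 probe sets in all. Of the 14 probe sets, 13 passed the filter on dim values and were tested among 15123 probe sets. The genes were chosen with earlier results of these 12 arrays known, so the levels and fold changes that follow are a description of the genes, not a test of them.

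The arrays measured total RNA of the cultured lines Detroit, Fadu and OECM1, all from cancers of the head and neck. Fadu grew from a hypopharyngeal squamous tumour and OECM1 from an oral one, and the labels do not say which Detroit line was meant. Each line had 2 arrays of an invasion subline, made by passing cells through Matrigel, a basement membrane extract, and collecting those that invaded strongly, and 2 arrays of the parent cells. The labels do not say whether a subline was a pool or a clone, or whether the 2 arrays of a group came from separate cultures. P-values therefore measure only the spread between these arrays, which may be technical. All values are log2 expression values as deposited, so a difference of 1 is a factor of 2, and values of different probe sets cannot be compared as levels.

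The complement system is a cascade of plasma and cell surface proteins that marks cells and microbes for removal and can lyse them. In the classical pathway C1q binds its target and activates the proteases C1r and C1s, which cleave C4 and C2 to form an enzyme that cleaves C3. The alternative pathway amplifies C3 cleavage with factor B. Host cells limit the cascade at several steps: C1 inhibitor (SERPING1) blocks C1r and C1s, CD55 speeds the decay of the C3-cleaving enzymes, CD46 serves factor I (CFI) as a cofactor in cleaving C3b and C4b, and CD59 blocks assembly of the membrane attack complex. The liver makes most circulating complement, but epithelial and carcinoma cells also make C3 and other components, and carcinoma cells commonly carry CD46, CD55 and CD59 on their surface.

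The arrays labelled Detroit invasion subline stood closer to the Fadu parent than to their own parent. Over the 15123 tested probe sets, their mean had a correlation of 0.965 with the mean of the Fadu parent, against 0.893 with that of the Detroit parent. Probe sets are not independent. The Fadu invasion subline and the OECM1 groups were not compared with these arrays in this way. KRT14, a keratin of basal squamous cells, measured 11.52 and 9.52 on the arrays labelled Detroit invasion subline, against 4.11 and 4.0 on the Detroit parent arrays and 9.08 and 8.66 on the Fadu parent arrays. A difference between sublines and parents and a difference between lines cannot be told apart in the Detroit comparison, so the Detroit subline values are also set beside the Fadu parent. These arrays are called the Detroit invasion subline below, as they were labelled. The root mean square difference between duplicates was 0.873 for the Detroit invasion subline and 0.583 for the Detroit parent, and it lay between 0.429 and 0.744 in the other 4 groups. Epithelial and squamous markers were present, with 7 of 8 genes above the dim limit of 4.52 on all 12 arrays. Of the defining markers of other cells, 0 of 6 leukocyte, 0 of 5 endothelial, 0 of 6 hepatocyte and 1 of 7 fibroblast genes lay above that limit on all arrays. Under the limit on every array lay 3 of 6 leukocyte, 4 of 5 endothelial, 2 of 6 hepatocyte and 2 of 7 fibroblast genes. The remaining genes exceeded it on some arrays. Summarised as the mean over the fibroblast genes, an array lay between 4.08 and 5.03. COL1A2, a fibroblast collagen, measured 4.67 and 4.73 in the Detroit invasion subline on its probe set 202403_s_at. The Detroit parent values were 8.50 and 5.35, so the subline was lower without overlap (log2 difference -2.22, adjusted p = 0.147 by limma). On the other COL1A2 probe set, 202404_s_at, the values were 3.47 and 3.23 against 5.56 and 3.35, with overlap. COL1A1 measured 4.42 and 4.60 in the Detroit invasion subline on probe set 202310_s_at, against 6.0 and 4.34 in the Detroit parent, with overlap. Its brighter probe sets did not share the high Detroit parent array. On 202312_s_at the values were 6.43 and 5.90 against 6.25 and 6.13. On 217430_x_at they were 6.37 and 5.33 against 6.29 and 6.26. Its dim probe set 202311_s_at overlapped too. Over the 10 tested fibroblast probe sets the median log2 difference in Detroit was -0.03. The part of these markers in the Detroit differences was not tested. In bulk RNA, fewer cells that express a gene and less RNA per cell cannot be told apart.

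C3, the central component on which all activation pathways converge, spanned the widest range of the 8 genes. C3 measured 5.65 and 5.12 on the arrays labelled Detroit invasion subline, against 10.49 and 9.71 on the Detroit parent arrays. C3 measured 6.35 and 7.35 in the Fadu invasion subline, against 9.85 and 7.02 in the Fadu parent. C3 measured 8.61 and 8.77 in the OECM1 invasion subline, against 9.56 and 7.33 in the OECM1 parent. Both Detroit subline arrays lay far below both Detroit parent arrays, whereas the subline and parent arrays overlapped in Fadu and OECM1. The mean was 26.2-fold lower in the arrays labelled Detroit invasion subline than in the Detroit parent (log2 difference -4.71, SE 0.875, n = 2 arrays per group). The log2 difference was -1.58 in Fadu and 0.25 in OECM1, each with the same SE of 0.875 because all groups shared 1 estimate of the spread. Against the Fadu parent, which these arrays resembled, C3 on the arrays labelled Detroit invasion subline was 8.26-fold lower (log2 difference -3.05), with no overlap. That difference was not called by limma, and its size depended on the Fadu parent array at 9.85, the other being at 7.02. C3 on these arrays also lay below both Fadu invasion subline arrays.

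In the order of group means C3 was highest in the Detroit parent at 10.10, above the OECM1 invasion subline at 8.69, the OECM1 parent at 8.44, the Fadu parent at 8.44, the Fadu invasion subline at 6.85 and the Detroit invasion subline at 5.39. Of the 5 pairs of neighbours in that order, 2 did not overlap, the first and the last. The duplicates of C3 disagreed in both parents where the sublines overlapped them. In the Fadu parent, replicate 1 exceeded replicate 2 by 2.83, a difference that 0.0793% of the tested probe sets matched or exceeded. In the OECM1 parent the excess was 2.23, which 1.04% matched or exceeded. Without Fadu parent replicate 1 the Fadu log2 difference was -0.17, and without Fadu parent replicate 2 it was -3.00. Without OECM1 parent replicate 1 the OECM1 log2 difference was 1.36, and without OECM1 parent replicate 2 it was -0.87, so a single parent array set both the size and, in OECM1, the direction. The array with the higher 3 prime to 5 prime ACTB control ratio, a measure of RNA integrity, also had the higher C3 value in 5 of 6 groups. The count was the same for C1S and for each CD46 probe set, and it ran from 1 (C1R) to 4 for the other member probe sets. It was not made over all tested probe sets, so it has no share to stand beside, and the CD46 probe sets share their RNA. The part of that ratio in the differences between duplicates was not tested.

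**Figure D1:**
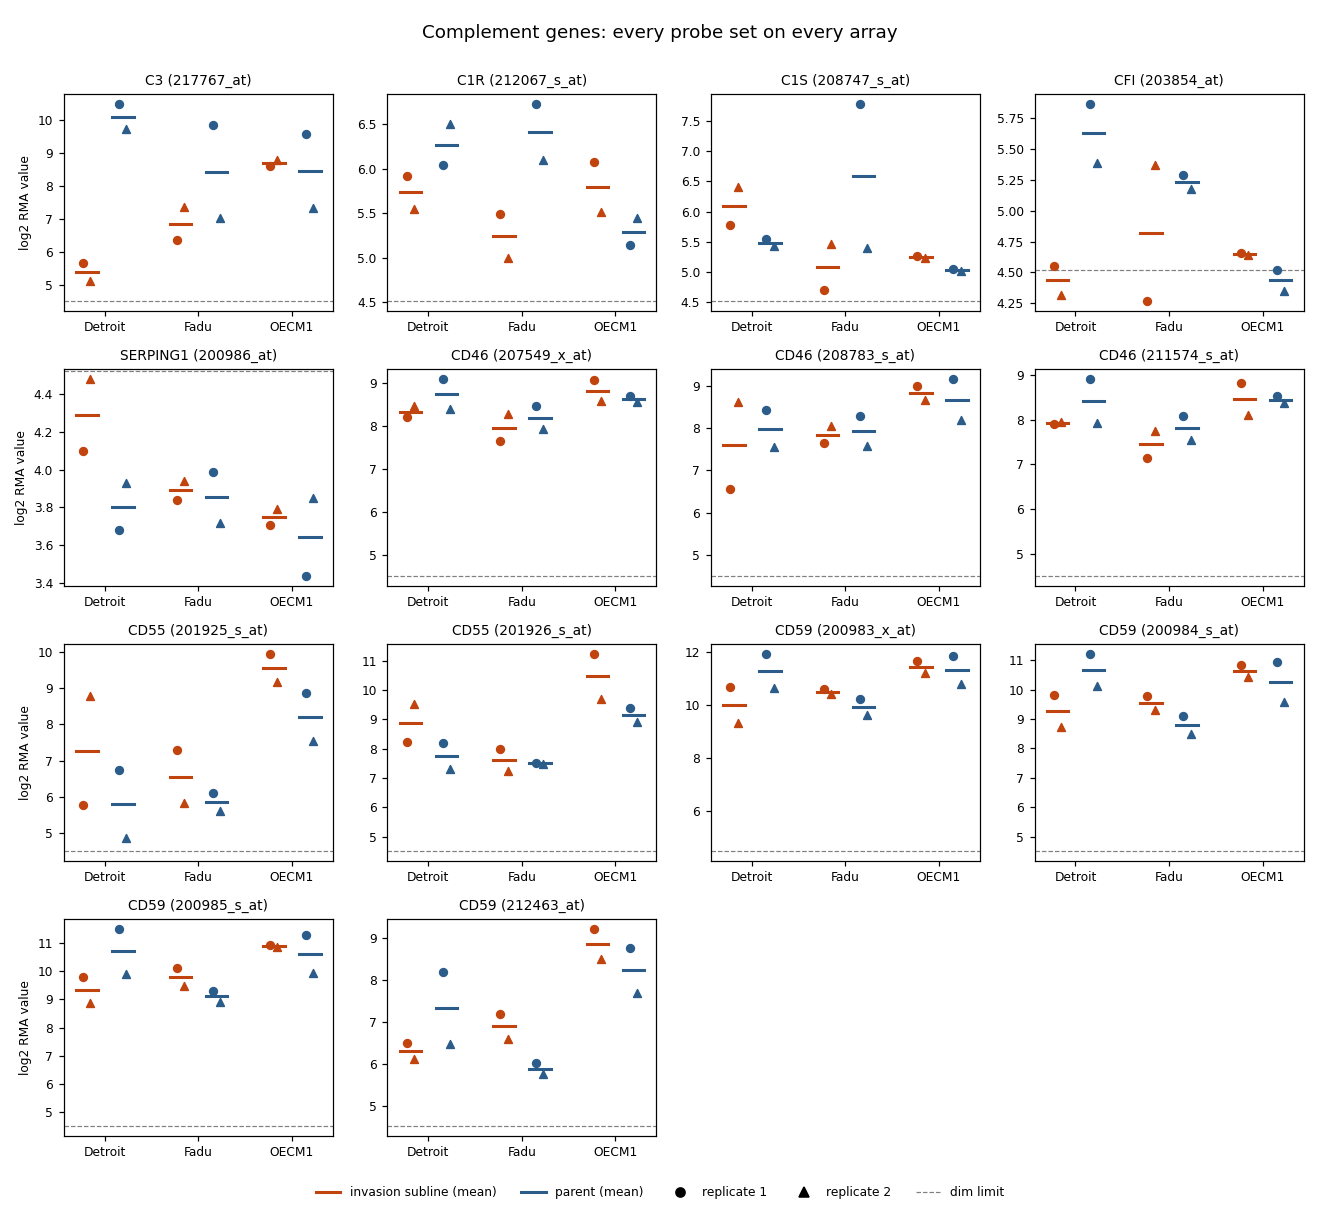
Log2 expression of each of the 14 member probe sets (panels) on the 12 arrays, with each invasion subline left of its parent, points for single arrays, bars for the mean of 2 arrays and a dashed line at the dim limit of 4.52. C3 lies at 5.65 and 5.12 on the arrays labelled Detroit invasion subline and at 10.49 and 9.71 in the Detroit parent, and all SERPING1 points lie under the dashed line.

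C1R and C1S encode the paired serine proteases of the C1 complex, and the genes neighbour each other on chromosome 12. The 250 bases upstream of the C1R start (RefSeq, GRCh38.p14, chr12:7092446-7092695, minus strand) are shown because C1R was the gene whose subline and parent arrays stood apart in every line, and capitals mark the only match in this window to the 5 motifs that were searched.
C1R: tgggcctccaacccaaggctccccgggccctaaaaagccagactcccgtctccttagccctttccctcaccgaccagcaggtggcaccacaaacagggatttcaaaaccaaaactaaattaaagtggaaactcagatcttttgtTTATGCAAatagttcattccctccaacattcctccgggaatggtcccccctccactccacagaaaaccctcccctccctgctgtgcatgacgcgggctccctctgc
The match is to a C/EBP motif, TTGCNNAA, on the opposite strand 106 bases before the start, and 9.05% of 35116 promoters of the same length hold it. C/EBP factors drive acute phase genes in liver, and a letter match is not evidence of binding.

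C1R measured 5.92 and 5.55 in the Detroit invasion subline, against 6.04 and 6.50 in the Detroit parent. C1R measured 5.49 and 5.0 in the Fadu invasion subline, against 6.73 and 6.10 in the Fadu parent. C1R measured 6.08 and 5.51 in the OECM1 invasion subline, against 5.14 and 5.45 in the OECM1 parent. Subline arrays lay below parent arrays in Detroit and Fadu and above them in OECM1, with log2 differences of -0.53, -1.17 and 0.51 (SE 0.336). C1S did not follow the same course.

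C1S measured 5.77 and 6.41 in the Detroit invasion subline, against 5.55 and 5.42 in the Detroit parent, a log2 difference of 0.60 (SE 0.597) with no overlap. C1S measured 4.69 and 5.46 in the Fadu invasion subline, against 7.79 and 5.40 in the Fadu parent, a log2 difference of -1.53 that rested on the single high parent array. C1S measured 5.26 and 5.23 in the OECM1 invasion subline, against 5.05 and 5.02 in the OECM1 parent, a log2 difference of 0.21. The Detroit subline was therefore below its parent for C1R and above it for C1S. In the Fadu parent, replicate 1 exceeded replicate 2 by 2.39 for C1S, against 0.63 for C1R.

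CFI, factor I, the protease that inactivates C3b and C4b, lay near the dim limit in most groups. CFI measured 4.55 and 4.32 in the Detroit invasion subline, against 5.87 and 5.39 in the Detroit parent, a log2 difference of -1.19 (SE 0.331) with no overlap. CFI measured 4.27 and 5.37 in the Fadu invasion subline, against 5.29 and 5.18 in the Fadu parent, a log2 difference of -0.41 with overlap. CFI measured 4.66 and 4.64 in the OECM1 invasion subline, against 4.52 and 4.35 in the OECM1 parent, a log2 difference of 0.22 with no overlap. CFI was lower in the Detroit invasion subline than in the Fadu parent as well, by a log2 difference of -0.80, with no overlap. SERPING1 lay below the dim limit on all 12 arrays and was not tested. It measured 4.10 and 4.48 in the Detroit invasion subline, against 3.68 and 3.93 in the Detroit parent. It measured 3.84 and 3.94 in the Fadu invasion subline, against 3.99 and 3.72 in the Fadu parent. It measured 3.71 and 3.79 in the OECM1 invasion subline, against 3.44 and 3.85 in the OECM1 parent. At such values these data cannot tell a low SERPING1 level from none.

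CD55, decay-accelerating factor, is anchored in the membrane by a lipid, and its gene lies between C4BPA and CR2 in a group of complement regulator genes on chromosome 1. Its 250 upstream bases (RefSeq, GRCh38.p14, chr1:207321428-207321677, plus strand) are shown because CD55 was the tested gene with subline means above parent means on each of its probe sets in all 3 lines, and capitals mark a GC box.
CD55: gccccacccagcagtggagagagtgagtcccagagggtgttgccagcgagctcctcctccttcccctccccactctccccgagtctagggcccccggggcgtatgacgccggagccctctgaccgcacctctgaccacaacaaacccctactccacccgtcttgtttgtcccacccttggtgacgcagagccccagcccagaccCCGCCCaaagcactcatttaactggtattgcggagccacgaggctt
The GC box motif, GGGCGG, was found on the opposite strand 46 bases before the start, and 42.6% of the 35116 promoters hold it. The GC content of this window was 64.0%, against a median of 58.0% over all promoters.

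The probe set 201926_s_at of CD55 measured 8.23 and 9.53 in the Detroit invasion subline, against 8.18 and 7.32 in the Detroit parent. It measured 7.99 and 7.24 in the Fadu invasion subline, against 7.51 and 7.48 in the Fadu parent. It measured 11.24 and 9.70 in the OECM1 invasion subline, against 9.39 and 8.91 in the OECM1 parent. The arrays did not overlap in Detroit and OECM1, and they overlapped in Fadu. The log2 differences were 1.13, 0.11 and 1.32 for Detroit, Fadu and OECM1 (SE 0.578), or 2.19-fold, 1.08-fold and 2.50-fold higher in the sublines.

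The other CD55 probe set, 201925_s_at, measured 5.77 and 8.78 in the Detroit invasion subline, against 6.75 and 4.87 in the Detroit parent. It measured 7.30 and 5.82 in the Fadu invasion subline, against 6.12 and 5.61 in the Fadu parent. It measured 9.94 and 9.17 in the OECM1 invasion subline, against 8.87 and 7.54 in the OECM1 parent. OECM1 was thus the line in which both probe sets separated the arrays, whereas the 2 Detroit subline arrays differed by 3.01 on this probe set, replicate 2 being higher. The log2 differences were 1.46, 0.69 and 1.35 (SE 0.937). Leaving out Detroit invasion subline replicate 2 took the Detroit value to -0.04, and leaving out Fadu invasion subline replicate 1 took the Fadu value to -0.04. On both probe sets the OECM1 invasion subline had the highest mean of the 6 groups and stood apart from the OECM1 parent, the next in order.

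CD59, protectin, is the lipid-anchored inhibitor of the last step of the cascade. Its 250 upstream bases (RefSeq, GRCh38.p14, chr11:33736480-33736729, minus strand) are shown because its 4 probe sets differed in the same direction within each line. The probe sets of CD46 and those of CD55 did so too. Capitals mark a match to an interferon-gamma activated site.
CD59: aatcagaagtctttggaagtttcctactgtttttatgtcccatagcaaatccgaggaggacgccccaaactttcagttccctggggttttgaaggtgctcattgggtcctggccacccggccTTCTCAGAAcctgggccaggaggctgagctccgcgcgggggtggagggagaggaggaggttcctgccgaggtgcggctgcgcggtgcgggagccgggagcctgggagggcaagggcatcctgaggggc
This motif, TTCNNNGAA, which reads the same on both strands, starts 128 bases before the gene, and 6.57% of the 35116 promoters hold it. Of the other members, CD46 held 2 GC boxes and CFI held 0 of the 5 motifs. The remaining motifs searched were an interferon-stimulated response element, GAAANNGAA, held by 6.88% of promoters, and an NF-kB motif, GGAANTTCC, held by 0.826%, and neither was found upstream of C1R, CFI, CD46, CD55 or CD59.

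The CD59 probe set 200984_s_at measured 9.81 and 8.72 in the Detroit invasion subline, against 11.22 and 10.11 in the Detroit parent. It measured 9.79 and 9.31 in the Fadu invasion subline, against 9.11 and 8.48 in the Fadu parent. It measured 10.82 and 10.43 in the OECM1 invasion subline, against 10.95 and 9.57 in the OECM1 parent. Subline arrays lay below parent arrays in Detroit, above them in Fadu and among them in OECM1. The log2 differences were -1.40, 0.76 and 0.36 (SE 0.545).

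The CD59 probe set 200985_s_at measured 9.80 and 8.89 in the Detroit invasion subline, against 11.51 and 9.90 in the Detroit parent. It measured 10.12 and 9.46 in the Fadu invasion subline, against 9.31 and 8.90 in the Fadu parent. It measured 10.94 and 10.85 in the OECM1 invasion subline, against 11.30 and 9.95 in the OECM1 parent. The pattern by line was that of 200984_s_at. The probe set 212463_at measured 6.49 and 6.11 in the Detroit invasion subline, against 8.18 and 6.46 in the Detroit parent. It measured 7.19 and 6.59 in the Fadu invasion subline, against 6.02 and 5.74 in the Fadu parent. It measured 9.21 and 8.50 in the OECM1 invasion subline, against 8.75 and 7.68 in the OECM1 parent. Here 1 Detroit parent array lay among the Detroit subline arrays, so these groups overlapped, while the Fadu arrays stood apart. The last CD59 probe set, 200983_x_at, measured 10.67 and 9.34 in the Detroit invasion subline, against 11.93 and 10.65 in the Detroit parent. It measured 10.59 and 10.42 in the Fadu invasion subline, against 10.22 and 9.61 in the Fadu parent. It measured 11.65 and 11.22 in the OECM1 invasion subline, against 11.85 and 10.80 in the OECM1 parent. Its Detroit arrays overlapped by a narrow margin, and its Fadu arrays did not overlap.

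Over the 4 CD59 probe sets the log2 difference ran from -1.40 to -1.02 in Detroit, from 0.59 to 1.01 in Fadu and from 0.11 to 0.64 in OECM1. All 4 separated the arrays in Fadu and 2 of 4 did in Detroit. On the arrays labelled Detroit invasion subline CD59 differed little from the Fadu parent, with log2 differences from 0.09 to 0.47, and only 212463_at did not overlap. Probe sets of 1 gene share their RNA and are not independent replicates.

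CD46, membrane cofactor protein, a transmembrane regulator whose gene lies between CR1L and CD34, differed least between sublines and parents among the tested genes. The probe set 207549_x_at measured 8.21 and 8.47 in the Detroit invasion subline, against 9.11 and 8.41 in the Detroit parent. It measured 7.65 and 8.29 in the Fadu invasion subline, against 8.47 and 7.93 in the Fadu parent. It measured 9.07 and 8.58 in the OECM1 invasion subline, against 8.71 and 8.56 in the OECM1 parent. Subline and parent arrays overlapped in all 3 lines. The probe set 211574_s_at measured 7.89 and 7.94 in the Detroit invasion subline, against 8.91 and 7.93 in the Detroit parent. It measured 7.15 and 7.74 in the Fadu invasion subline, against 8.07 and 7.55 in the Fadu parent. It measured 8.82 and 8.10 in the OECM1 invasion subline, against 8.52 and 8.37 in the OECM1 parent. These groups also overlapped throughout. The probe set 208783_s_at measured 6.57 and 8.62 in the Detroit invasion subline, against 8.43 and 7.54 in the Detroit parent. It measured 7.64 and 8.05 in the Fadu invasion subline, against 8.28 and 7.58 in the Fadu parent. It measured 8.98 and 8.66 in the OECM1 invasion subline, against 9.16 and 8.18 in the OECM1 parent. The Detroit subline duplicates of this probe set disagreed by 2.05, more than any CD46 difference between a subline and its parent.

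Over its 3 probe sets the log2 difference ran from -0.51 to -0.39 in Detroit, from -0.36 to -0.08 in Fadu and from 0.02 to 0.19 in OECM1, and the arrays overlapped in every case. Without Detroit invasion subline replicate 1 the Detroit difference of 208783_s_at was 0.63, opposite in sign to the value of -0.39 with all arrays. In the order of the 6 group means, 0 of 5 neighbours stood apart for 208783_s_at and 211574_s_at of CD46 and for 200984_s_at and 200985_s_at of CD59, and at most 2 of 5 did for any member probe set.

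**Figure D2:**
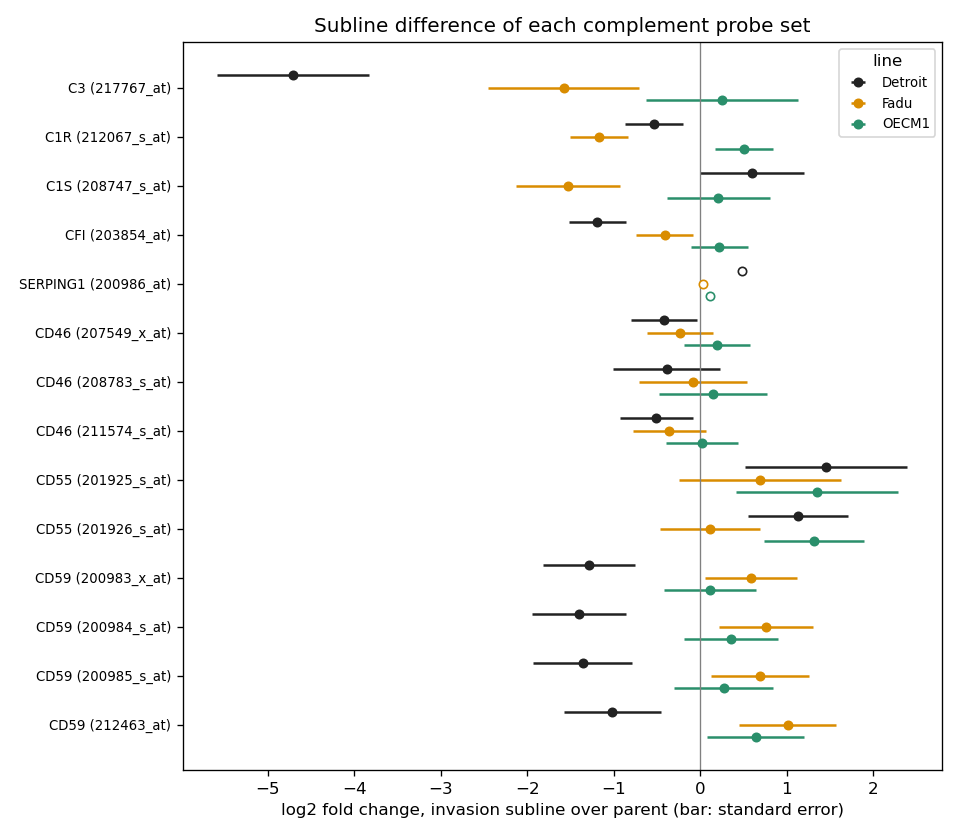
Log2 difference, invasion subline minus parent (horizontal axis), for each of the 14 member probe sets (rows) in the 3 lines, with bars for 1 SE from the limma fit and open circles for SERPING1, which was not tested. C3 lies at -4.71 in Detroit, the 4 CD59 points lie between -1.40 and -1.02 in Detroit and between 0.59 and 1.01 in Fadu, and the CD55 points lie at or above 0.11 in every line.

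Since the genes were chosen on these contrasts, the counts of called probe sets are given without a reading. In the Detroit comparison 1 of 13 tested member probe sets, that of C3, had an adjusted p under 0.05 in limma, where 3.02% of all tested probe sets did. That count was 0 without Detroit invasion subline replicate 2, Detroit parent replicate 1 or Detroit parent replicate 2, and it was 2 without either Fadu invasion subline array. At an unadjusted p under 0.05 there were 5 of 13, where 15.7% of all tested probe sets were. In Fadu limma called 0 of 13, where 0.0198% of all were called, and 2 had an unadjusted p under 0.05, where 1.75% of all did. In OECM1 limma called 0 of 13, where 0.00661% of all were called, and 1 had an unadjusted p under 0.05, where 3.29% of all did. Arrays did not overlap for 7 of 13 member probe sets in Detroit, 2 higher and 5 lower in the subline, where 38.6% of all did not. In Fadu this held for 5 of 13, 4 higher and 1 lower, where 32.6% of all did not overlap, and in OECM1 for 5 of 13, all higher, where 24.7% did not. The median log2 difference of the members was -0.53 in Detroit, -0.08 in Fadu and 0.25 in OECM1, beside medians over all tested probe sets of -0.01, -0.01 and 0.

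Set against the Fadu parent, the arrays labelled Detroit invasion subline were called for 0 of 13 member probe sets, 3 of which had an unadjusted p under 0.05, and 0% of all tested probe sets were called by limma, with 3.69% at an unadjusted p under 0.05. Arrays did not overlap for 5 of 13, where 27.4% of all did not: C3, C1R and CFI were lower, and CD55 201926_s_at (log2 difference 1.38) and CD59 212463_at (0.42) were higher in the subline arrays. This comparison shares its subline arrays with the Detroit comparison. Between the 3 parents, limma called 4.77% of all tested probe sets and 0 of the 13 member probe sets, of which 8 had an unadjusted p under 0.05, where 18.9% of all did. The number called was 1, in place of 0, without either Detroit parent array or without Fadu parent replicate 2. Of the members, the F test in limma for a difference of the 3 line effects called 0 of 13, where 0.602% of all were called, and 4 had an unadjusted p under 0.05, where 8.20% of all did.

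Other complement genes were counted from lists of 54 genes, of which 44 were on the array and 21, with 27 probe sets, passed the filter. The tested genes were 3 of 12 initiation genes such as C1q and the lectins, 3 of 6 convertase and alternative pathway genes, 2 of 7 terminal pathway genes, 3 of 14 soluble regulators and 10 of 15 membrane regulators and receptors. In Detroit limma called 1 of the 27 probe sets, that of CFB, where 3.02% of all tested probe sets were called, so the list's share was near that of all probe sets. In Detroit 2 of the 27 had an unadjusted p under 0.05, where 15.7% of all did. Limma called 0 in Fadu and 0 in OECM1, with 1 and 2 at an unadjusted p under 0.05, where 1.75% and 3.29% of all were. Between the parents it called 0, with 1 at an unadjusted p under 0.05, where 18.9% of all were. The median log2 difference of the 27 probe sets was -0.09 in Detroit, -0.13 in Fadu and 0.10 in OECM1.

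CFB, factor B, supplies the protease of the alternative pathway C3 convertase. Its probe set 202357_s_at measured 4.71 and 4.96 on the arrays labelled Detroit invasion subline, against 9.83 and 7.28 on the Detroit parent arrays. It measured 4.85 and 5.09 in the Fadu invasion subline, against 7.84 and 5.11 in the Fadu parent. It measured 4.38 and 4.95 in the OECM1 invasion subline, against 4.54 and 4.80 in the OECM1 parent. CFB was high in both Detroit parent arrays and in 1 Fadu parent array, and low on every other array. It was 13.2-fold lower in the Detroit comparison (log2 difference -3.72, SE 0.846, adjusted p = 0.0410 by limma, n = 2 arrays per group), and it was 2.84-fold lower in Fadu (adjusted p = 1 by limma). The call ended in 14 of 21 alternative analyses, among them those without either Detroit subline array, either Fadu subline array or any 1 OECM1 array. Without Detroit parent replicate 1 the log2 difference was -2.45 with an adjusted p of 0.254 by limma. The second CFB probe set, 211920_at, did not share this pattern, with a log2 difference of -0.28 in Detroit and an adjusted p of 0.878 by limma.

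**Figure D3:**
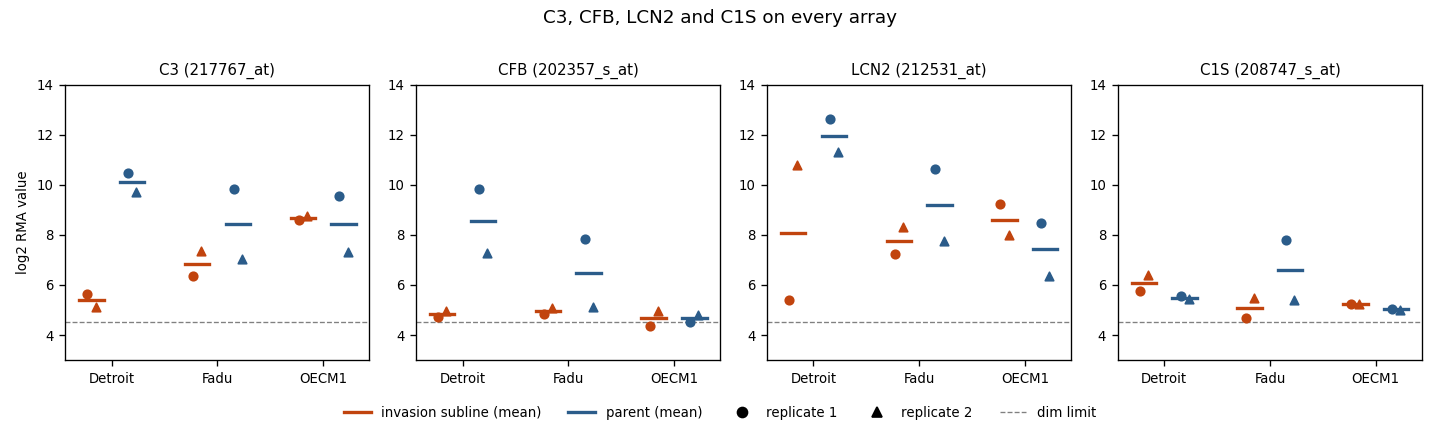
Log2 expression of C3, CFB (202357_s_at) and LCN2 on the 12 arrays, and of C1S, with each invasion subline left of its parent, circles for replicate 1 and triangles for replicate 2. In the Fadu parent replicate 1 lies above replicate 2 by 2.83 for C3, 2.72 for CFB and 2.88 for LCN2.

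The single high Fadu parent array for C3 was also high for CFB and for LCN2, lipocalin 2, an iron-binding acute phase protein named here after its values were seen. LCN2 measured 5.40 and 10.79 in the Detroit invasion subline, against 12.62 and 11.30 in the Detroit parent. LCN2 measured 7.25 and 8.30 in the Fadu invasion subline, against 10.63 and 7.75 in the Fadu parent. LCN2 measured 9.24 and 7.98 in the OECM1 invasion subline, against 8.49 and 6.37 in the OECM1 parent. In the Fadu parent the difference between replicate 1 and replicate 2 was 2.88 for LCN2 and 2.72 for CFB, which ranked 10th and 15th of 15123 by size, and C3 ranked 12th. Other genes of the acute phase list described below did not all share this split of the Fadu parent arrays. CP was also higher on replicate 1, at 5.90 against 3.98. SERPINA1 was higher there as well (7.05 against 6.08 on 211429_s_at), as was CEBPD (8.79 against 8.09 on 203973_s_at). CEBPB lay at 9.43 against 8.64, and NFKBIA at 10.83 against 10.12. IL1B was lower on replicate 1, at 7.68 against 9.06 on probe set 205067_at, and IL6 differed little, at 5.62 against 5.59. Probe sets of SOCS3 and of STAT3 went both ways. The direction was not counted over the whole list. The arrays labelled Detroit invasion subline split for LCN2, with a difference of 5.39 between them, while both were low for C3.

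Of 24 acute phase and cytokine response genes, listed as regulated with C3 or SERPING1 in other cells, 18 were on the array and 15, with 22 probe sets, were tested. In the subline comparisons limma called 0 of the 22, with 3, 4 and 0 at an unadjusted p under 0.05 in Detroit, Fadu and OECM1, where 15.7%, 1.75% and 3.29% of all tested probe sets were. Their median log2 difference was 0.12 in Detroit, -0.09 in Fadu and -0.10 in OECM1, beside -0.01, -0.01 and 0 over all tested probe sets. Within the list LCN2 was 14.6-fold lower in the Detroit subline, without overlap (log2 difference -3.87, SE 1.49, adjusted p = 0.224 by limma), and its log2 difference was -1.41 in Fadu and 1.18 in OECM1, with overlap in both. Between the 3 parents 5 of the 22 probe sets were called, for SERPINA1, CEBPD and IL1B, where 4.77% of all tested probe sets were. SERPINA1, alpha-1 antitrypsin, measured 5.87 and 5.41 in the Fadu parent on probe set 202833_s_at, against 3.66 and 3.16 in the Detroit parent and 3.38 and 3.30 in the OECM1 parent (adjusted p = 0.00111 by limma). IL1B, the inflammatory cytokine interleukin 1 beta, measured 9.31 and 10.79 in the OECM1 parent, against 6.80 and 6.90 in the Detroit parent and 7.68 and 9.06 in the Fadu parent on probe set 205067_at (adjusted p = 0.0228 by limma). LCN2, whose adjusted p over the parents was 0.216 by limma, was highest in the Detroit parent, as C3 was.

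With each gene represented by its probe set of highest mean, C3 and CD55 had group means that spanned at least 2 on the log2 scale, by 4.71 and 2.97. CD59 spanned 1.52 on that probe set, 200983_x_at, and 2.97 on its dimmer probe set 212463_at, so it was not taken into the search for like genes. Among 850 genes that varied as widely, those whose values over the 12 arrays were most like C3 were GALNT1, a glycosyltransferase (Pearson r = 0.90), AOPEP (r = 0.85) and IGFBP7, a secreted growth factor binding protein (r = 0.84). Group means of GALNT1 were 6.67 in the Detroit invasion subline against 8.95 in its parent, 7.29 in the Fadu invasion subline against 7.73 in its parent, and 8.32 in the OECM1 invasion subline against 7.91 in its parent. Those most like CD55 were PPP1R15A, a stress-induced phosphatase subunit (r = 0.93), FSTL3, a secreted activin antagonist (r = 0.92), and ITGA5, an integrin subunit that binds fibronectin (r = 0.92). Group means of ITGA5 were 7.14 in the Detroit invasion subline against 6.61 in its parent, 6.65 in the Fadu invasion subline against 6.34 in its parent, and 8.54 in the OECM1 invasion subline against 7.80 in its parent. The arrays of a group share their cells, so these correlations are descriptions of 6 groups.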

How the data were processed

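Total RNA from 12 samples of 3 cell lines was hybridised to Affymetrix arrays, 1 array per sample, per the labels' protocols. The deposited values are log2 expression values for 22283 probe sets, made by the authors; RMA (background correction, quantile normalisation and probe summary) and Partek version 7 are named in the submitters' processing notes. Differences of weak genes are understated on this scale. There were 0 missing values and 0 unused columns. No genome build or detection call is given in the sources used here, and the number of arrays limits the precision.

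By the platform annotation 19065 probe sets had 1 symbol, 1043 several and 2107 none, and 68 controls were left out of the tests. Probe sets with at least 2 arrays above the 40th percentile of all values (4.52) were tested. The model held 6 group means over 12 arrays and used lmFit and eBayes (trend on) of limma 3.58.1 under R 4.3.3. Adjusted p-values are Benjamini-Hochberg values over 15123 probe sets, called under 0.05. The 3 parents and the 3 line effects were compared with F tests. The fit was run on simulated data with independent noise for each value and changes placed in the Fadu subline alone. Those data lack deviations that the probe sets of an array share, so the run is no check of the calls above. Duplicates were checked for identity, and at most 3 probe sets per pair had identical values. Deviations of same-numbered arrays correlated at -0.17, -0.41 and -0.40 in Detroit, Fadu and OECM1, so the arrays did not pair by equal replicate number. With 2 arrays per group, arrays of crossed numbers correlate with the opposite sign, so these deviated alike. The reason for this was not tested.

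The members and lists were chosen with earlier results of these data known. All member probe sets were named, as were called genes of the complement lists and up to 4 called genes of the acute phase list; the likeness rule named the 3 genes with the highest correlation for each member whose probe set of highest mean spanned at least 2. LCN2, CP, IL6, CEBPB, NFKBIA, SOCS3, STAT3, KRT14, COL1A1 and COL1A2 are named beyond that rule. Alternatives changed the filter, scaling, array weights, trend, the arrays sharing a spread, the replicate block, the unit of the fit and the arrays used. The ACTB covariate and the crossed pairing were chosen after seeing the data. Promoter sequences came from the RefSeq table, which held 5 of the 8 genes.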

Additional observations from a re-analysis of the deposited data

Results flagged for a closer look

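For 3 genes every subline array moved one way from its parent arrays in one line and the opposite way in another. The difference between that pair of lines was not tested in any of these cases. Of all tested probe sets, 38.6% in Detroit, 32.6% in Fadu and 24.7% in OECM1 had subline and parent arrays that did not overlap. The share that did so in opposite directions between lines was not counted, so the number of genes is given without a reading. The F test over all 3 line effects in limma called 0 of the 13 tested member probe sets, where 0.602% of all were called. At an unadjusted p under 0.05 there were 4, where 8.20% of all tested probe sets were. For C1R the OECM1 log2 difference exceeded the Fadu one by 1.67, and the Detroit one minus the OECM1 one was -1.04. For CFI the Detroit log2 difference minus the OECM1 one was -1.40. The OECM1 difference of CFI was 0.22 (SE 0.331), with 0 OECM1 parent arrays above the dim limit. For CD59 the Detroit log2 difference minus the Fadu one was -2.16 on 200984_s_at and -2.05 on 200985_s_at. Each case other than C1R between OECM1 and Fadu includes the arrays labelled Detroit invasion subline, which correlated with the Fadu parent at r = 0.965.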

How the results depend on the processing

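With 2 arrays per group the counts of called probe sets depended on the analysis, and the cause was not tested. With all arrays and no block they were 457 in Detroit, 3 in Fadu, 1 in OECM1, 0 for the Detroit subline against the Fadu parent, 722 between parents and 91 for the difference of line effects. With the replicate block they were 183, 0, 0, 0, 259 and 30, and the call of CFB was lost (adjusted p = 0.0669 by limma) while that of C3 held (adjusted p = 0.0477 by limma). With the numbers crossed as a block, 749 were called in Detroit, 0 in OECM1 and 1135 between parents. With 1 probe set per gene 295, 0 and 476 were called in these. Array weights gave 262 in Detroit, 5 in Fadu and 0 in OECM1, and 0 member probe sets in Detroit. With only the arrays compared 44, 1 and 0 were called in Detroit, Fadu and OECM1. In OECM1 no filter gave 5 and the stricter filter and no trend gave 0. The ACTB covariate gave 5 against the Fadu parent and 146 for line effects. It also gave 685 in Detroit and 1058 between parents, within 1.5 times of 457 and 722. Leaving out 1 array at a time gave 174 (without Detroit parent replicate 1) to 1366 (without Detroit invasion subline replicate 1) in Detroit, 0 to 4 in Fadu, 0 to 6 in OECM1, 0 to 306 against the Fadu parent, 319 (without Fadu parent replicate 1) to 1113 between parents and 43 to 328 for line effects. Called members ranged from 0 to 2 in Detroit and from 0 to 1 between parents. C3 in Detroit ranged from -5.16 to -4.32, and its adjusted p by limma was 0.0605 with array weights. It was 0.0691 without Detroit invasion subline replicate 2. Leaving out Detroit parent replicate 1 gave 0.127, and leaving out replicate 2 of that group gave 0.0511. For CFB the log2 difference ranged from -5.0 to -2.45 and the adjusted p by limma from 0.0152 to 0.254. The block, filter, weight and trend settings leave a difference of 2-array means as it is, so for member fold changes only the ACTB covariate, the centring and leaving out an array bear on the size. The ACTB covariate moved C1S in OECM1 to 0.31, beyond the spread of its duplicates. Signs of uncalled members could turn when an array was left out, as for CD46, CD55 and C3 above.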
